A study of Saccharomyces cerevisiae with 31 samples.

Results

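Glycogen is the branched glucose polymer that budding yeast, *Saccharomyces cerevisiae*, stores. The 10 genes described here make it, break it down or control its enzymes: GSY1, GSY2, GLC3, GLG1, GLG2, GPH1, GDB1, IGD1, GAC1 and PIG2. They were taken by name from the known pathway, with earlier results of these data known. Each was looked up by systematic name in the 3 tables of RNA changes that the authors deposited. Of the 10 genes, 7 were listed for the spt6-1004 mutant, where 694 of 5668 adjusted genes were listed in all. None of the 10 was listed for spt6-S8A or for spt6-S8E.

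Spt6 is a histone chaperone that accompanies RNA polymerase II and binds Spn1, and the series concerns its phosphorylation by casein kinase 2. RNA of strains carrying 1 of the alleles spt6-1004, spt6-S8A and spt6-S8E was compared with wild type (WT) RNA, with 3 libraries for each of the 4 genotypes, all grown in rich glucose medium (YPD) at 30 °C and collected at an optical density of 1. In spt6-S8A serines of Spt6 are replaced by alanine, which cannot be phosphorylated, and in spt6-S8E by glutamate, which is often used to imitate phosphate. The labels name no other allele or agent for any group, and they do not say whether the replicates came from separate cultures, so the p-values may measure technical spread only. SPT6 itself was listed in 0 of the 3 tables.

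Glycogen chains are started by the glycogenin proteins, which attach the first glucose units to themselves. Glycogen synthase then lengthens the chains from UDP-glucose, and the branching enzyme adds side chains. Breakdown runs through glycogen phosphorylase, which releases glucose 1-phosphate, and the debranching enzyme, which clears the branch points. Phosphorylation of glycogen synthase lowers its activity, and the phosphatase Glc7, brought to glycogen by targeting subunits, reverses this. Yeast growing fast on glucose holds little glycogen and builds it up as nutrients run low or under stress.

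The tables hold no values per library, so no value per sample can be shown. Each listed gene has a base mean, taken here as its mean over all 12 RNA libraries because 12 times it is whole, in a unit that the sources used here do not give, and a log2 fold change of the mutant over WT with its standard error (SE). "Listed" means an adjusted p under 0.05 in the authors' DESeq2 comparison. A gene missing from a table has no known value.

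In spt6-1004, 7 of the 10 glycogen genes rose and 0 fell, beside 5.63% of all adjusted genes that rose and 6.62% that fell. Because the genes were chosen with earlier results of these data known, these shares are not an independent comparison. All 3 genes that elongate and branch the chains rose, both breakdown enzymes rose, and so did the gene for an inhibitor of the debranching enzyme and 1 of the 2 genes for phosphatase targeting subunits. Neither glycogenin gene was listed. The median log2 fold change of the 7 listed genes was 2.63, a 6.18-fold increase, and that of all 319 higher genes in the authors' deposited table was 1.64. Of the 7, 5 had a log2 fold change of at least 2, a size reached by 110 of the 319 higher genes (34.5%). Every listed gene passed the threshold by definition, so these medians leave out the 3 unlisted members and the unlisted genes of the rest of the genome.

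**Figure D1:**
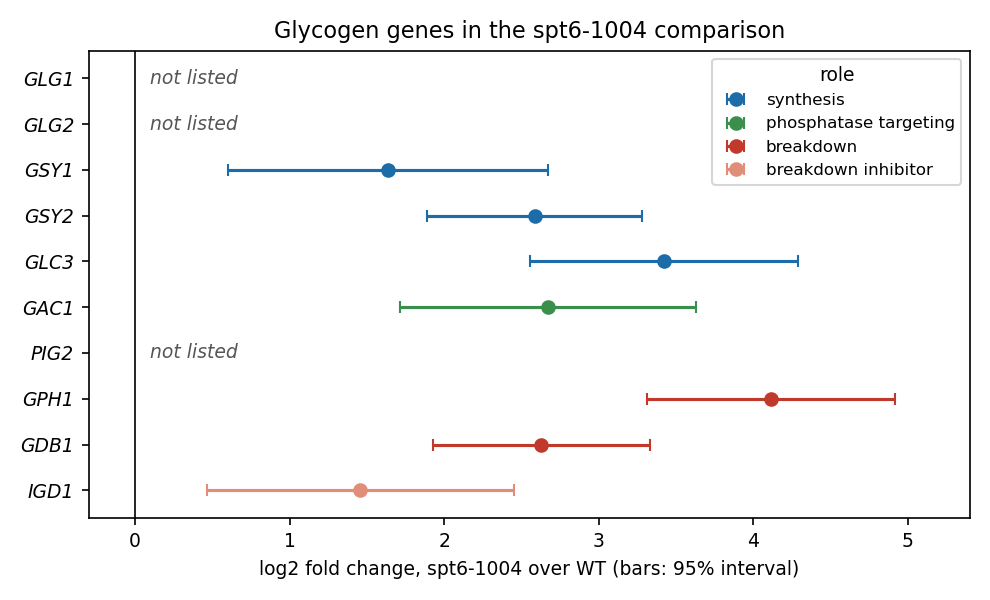
Log2 fold changes of spt6-1004 over WT for the 10 glycogen genes, coloured by role, with 95% intervals from the deposited standard errors. All 7 listed genes lie above 0, from 1.46 for IGD1 to 4.11 for GPH1, and GLG1, GLG2 and PIG2 have no value.

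GSY2 (YLR258W), the main glycogen synthase, lies on chromosome XII from 660716 to 662833 (assembly R64, coding gene). In the authors' deposited table it had a log2 fold change of 2.58 (SE 0.36, adjusted p = 3.04e-11, DESeq2) and a base mean of 19.8, which is a 6.0-fold increase with a 95% interval of 3.70 to 9.72. GSY1 (YFR015C), the second glycogen synthase, lies on chromosome VI from 174265 to 176391. In the authors' deposited table it had a log2 fold change of 1.64 (SE 0.53, adjusted p = 0.0203, DESeq2) and a base mean of 3.33, a 3.11-fold increase with an interval of 1.52 to 6.37. Both synthase genes were thus higher in spt6-1004, and the GSY2 minus GSY1 difference of 0.95 on the log2 scale had an interval of -0.30 to 2.19 (z test, adjusted p = 0.225). GSY1 and GSY2 are close copies, and the deposited values do not show how reads that match both were shared out.

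GLC3 (YEL011W), which encodes the branching enzyme, lies on chromosome V from 133120 to 135234. In the authors' deposited table, it had a log2 fold change of 3.42 (SE 0.44, adjusted p = 1.26e-12, DESeq2) and a base mean of 13.2. This 10.7-fold increase, with an interval of 5.87 to 19.6, was the second largest among the glycogen genes and the 23rd largest among the 319 higher genes. GLG1 (YKR058W, chromosome XI from 552770 to 554620) and GLG2 (YJL137C, chromosome X from 154985 to 156127), the glycogenin genes, were not listed. If they entered the adjustment, their p in this comparison was at least 0.00613, so that their Wald statistic (log2 fold change divided by its SE) lay within 2.74 of 0. The same limit holds for PIG2 (YIL045W, chromosome IX from 271161 to 272777), whose product is thought to target Glc7 to Gsy2. This does not show that the 3 genes were unchanged.

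GAC1 (YOR178C), the gene for the targeting subunit that brings Glc7 to glycogen synthase, lies on chromosome XV from 667860 to 670241. The authors' deposited table gave it a log2 fold change of 2.67 (SE 0.49, adjusted p = 1.53e-06, DESeq2) and a base mean of 6.83. The increase was 6.37-fold, with an interval of 3.29 to 12.4.

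On the breakdown side, GPH1 (YPR160W), which encodes glycogen phosphorylase, lies on chromosome XVI from 861306 to 864014. In the authors' deposited table its log2 fold change was 4.11 (SE 0.41, adjusted p = 3.11e-21, DESeq2) and its base mean 22.1. The increase was 17.3-fold, with an interval of 9.92 to 30.2, and it ranked 9th among the 319 higher genes by size and 21st among all 694 listed genes by p. GDB1 (YPR184W), the gene for the debranching enzyme, is on the same chromosome from 902044 to 906654. In the authors' deposited table it had a log2 fold change of 2.63 (SE 0.36, adjusted p = 2.03e-11, DESeq2) and a base mean of 20.6, a 6.18-fold increase with an interval of 3.80 to 10.05. IGD1 (YFR017C), whose product inhibits the debranching enzyme, lies on chromosome VI from 182274 to 182861. It had the smallest listed change among the glycogen genes, with 1.46 on the log2 scale in the authors' deposited table (SE 0.51, adjusted p = 0.0362, DESeq2) at a base mean of 4.50. The increase was 2.74-fold, with an interval of 1.38 to 5.46.

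By size of change the order was GPH1, GLC3, GAC1, GDB1, GSY2, GSY1 and IGD1. None of the 6 neighbouring pairs in this order differed by the z test on the deposited errors, taken as independent and adjusted over all 21 pairs (smallest adjusted p = 0.225). Of the 21 pairs, 6 differed, with no allowance for any shrinkage of the deposited fold changes towards 0. GPH1 rose more than IGD1 by 2.66 on the log2 scale (interval 1.38 to 3.94, adjusted p = 0.000966) and more than GSY1 by 2.48 (1.17 to 3.79, adjusted p = 0.00221). Between the breakdown enzymes, GPH1 rose more than GDB1 by 1.49 (0.42 to 2.55, adjusted p = 0.0265). GPH1 also rose more than the main synthase gene GSY2, by 1.53 (0.47 to 2.59, adjusted p = 0.0253). Its difference from GAC1, 1.44 (0.19 to 2.69), did not pass (adjusted p = 0.0706). GLC3 rose more than IGD1 by 1.97 (0.65 to 3.29, adjusted p = 0.0246) and more than GSY1 by 1.79 (0.43 to 3.14, adjusted p = 0.0336). GAC1, GDB1 and GSY2 lay within 0.09 of each other, with intervals of their differences reaching from -1.14 to 1.27. The number of differing pairs rests on the errors assumed, being 10 with errors correlated by 0.5 and 0 with errors 1.5 times as large.

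**Figure D2:**
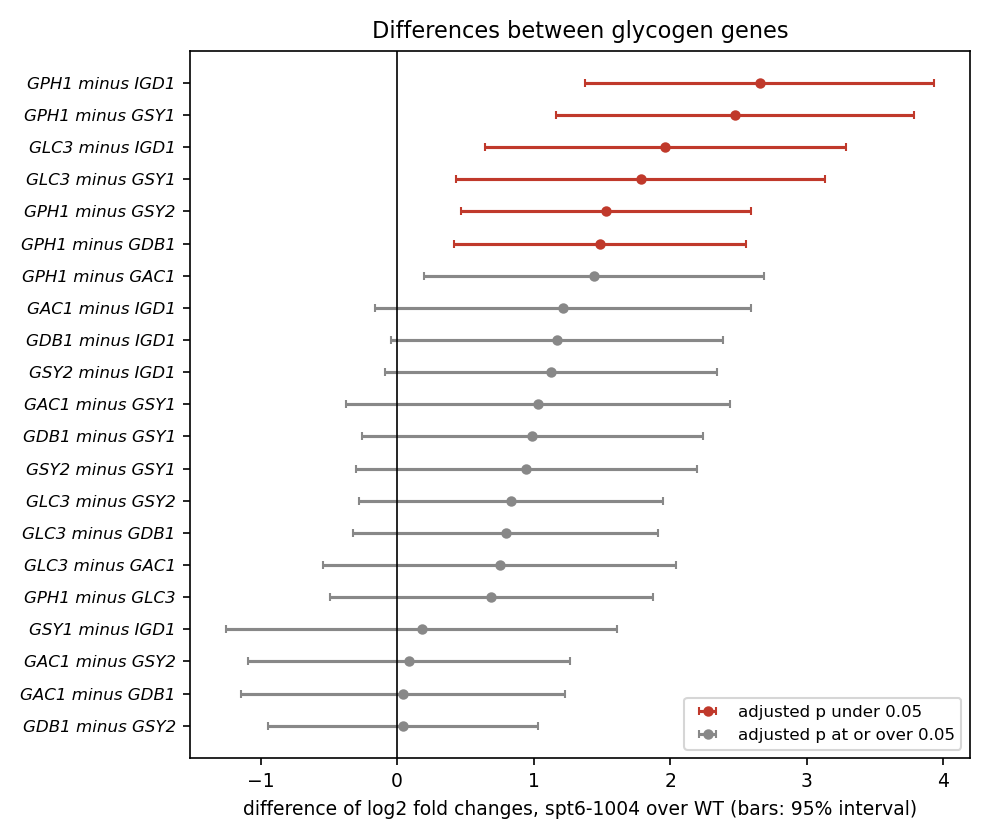
Differences between the log2 fold changes (spt6-1004 over WT) of each pair among the 7 listed glycogen genes, with 95% intervals. The 6 pairs with an adjusted p under 0.05, in red, all have GPH1 or GLC3 as the gene with the larger change.

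The glycogen genes were listed at low levels. In the authors' deposited table the base means of the 7 ran from 3.33 for GSY1 to 22.1 for GPH1. Their median was 13.2, beside 12.4 for all higher genes. Multiplied by 12, these are totals over all libraries of 40 for GSY1, 54 for IGD1, 82 for GAC1, 159 for GLC3, 238 for GSY2, 247 for GDB1 and 265 for GPH1. Per kilobase of coding length the base mean was 9.36 for GSY2 and 8.15 for GPH1. It was 7.65 for the short gene IGD1, 6.26 for GLC3 and 4.46 for the long gene GDB1. It was 2.87 for GAC1 and 1.57 for GSY1, so GSY1 had the lowest value per length among the listed glycogen genes. These values per length apply only if the authors' unit was not already scaled for length, which is not known. These levels average all 4 genotypes, so the 3 spt6-1004 libraries add to them. Since the 4 genotype means sum to 4 times the base mean, the deposited fold change, taken at face value, leaves a WT mean of at most 4.82 for GPH1 and at most 4.52 for GLC3. In the same way it leaves at most 11.3 for GSY2 and 11.5 for GDB1 in WT, in the authors' unit.

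The smallest changes, those of GSY1 and IGD1, were also at the lowest base means. The deposited SE of GSY1, 0.528, lies under 0.532, the least that read counting alone would give at that fold change and base mean without shrinkage if base means are read counts, whereas those of the other 6 lie above theirs. That does not show that the fold changes of the other 6 were left unshrunken. For SGA1, a gene of the wider pathway described below, the SE of 0.524 lies under 0.787, worked out in the same way. Shrinkage towards 0 understates the change of low genes most, and its part in the pair differences with GSY1 and IGD1 was not tested. Among the 70 higher genes with base means up to that of IGD1, log2 fold changes ran from 1.34 to 3.34 with a median of 1.84, and GSY1 and IGD1 both lay below that median. Among the 75 higher genes with base means from that of GLC3 to that of GPH1, they ran from 0.94 to 4.76 with a median of 1.29, and 3 genes lay above GPH1. The 4 glycogen genes in that range, GLC3, GSY2, GDB1 and GPH1, all lay above that median. Both ranges hold only genes listed as higher, and the glycogen genes were chosen with earlier results known. These medians are therefore not an independent comparison.

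**Figure D3:**
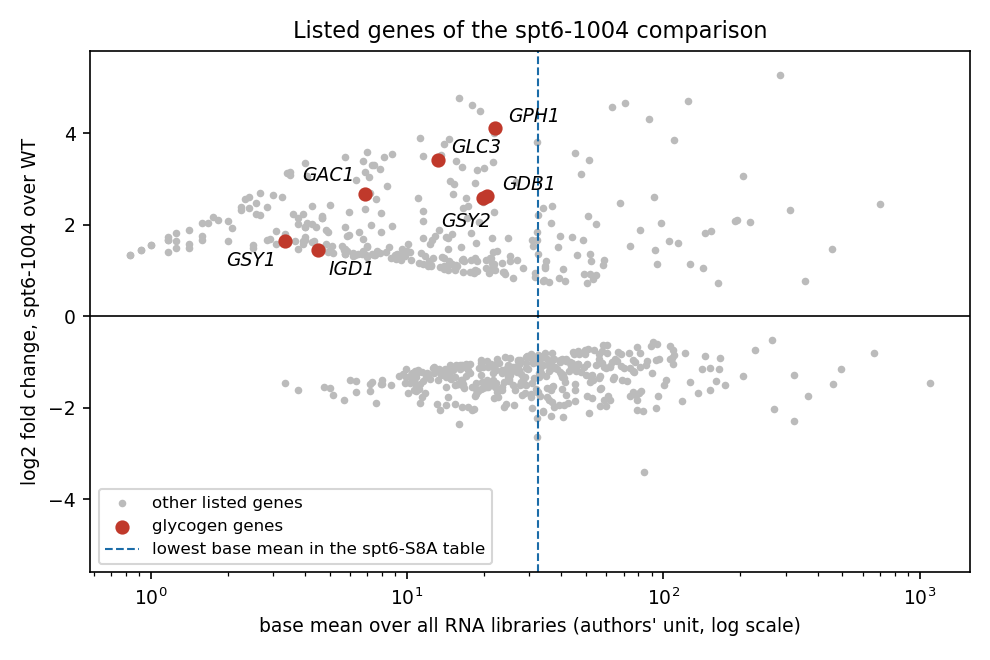
Log2 fold change of spt6-1004 over WT against base mean over all RNA libraries (log scale) for the 694 listed genes, with the 7 listed glycogen genes in red. All 7 lie left of the dashed line at 32.6, the lowest base mean in the spt6-S8A table.

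Of 20 further genes reported for precursor supply, the phosphatase and its partners, kinases and cyclins, and glycogen use in sporulation, 4 rose, 1 fell and 15 were not listed. Over all adjusted genes 5.63% rose and 6.62% fell, and this list too was chosen with earlier results known. Among the 3 genes for precursor supply, PGM2, the major phosphoglucomutase, which interconverts glucose 6-phosphate and glucose 1-phosphate, was at 3.99 in the authors' deposited table (SE 0.40, adjusted p = 1.35e-20, DESeq2). This 15.9-fold increase ranked 10th among the higher genes, directly after that of GPH1, at a base mean of 21.9. PGM1, the minor phosphoglucomutase, went the other way, at -2.06 in the authors' deposited table (SE 0.43, adjusted p = 4.54e-05, DESeq2) with a base mean of 13.5. UGP1, which makes the UDP-glucose that glycogen synthase uses, was at 1.21 in the authors' deposited table (SE 0.23, adjusted p = 8.13e-06, DESeq2).

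Of the 6 genes for the phosphatase Glc7 and its partners, only GIP2, which encodes a putative targeting subunit related to Pig2, was listed, at 1.95 in the authors' deposited table (SE 0.49, adjusted p = 0.00115, DESeq2). GLC7, GLC8, REG1, REG2 and PIG1 were not listed. None of the 10 kinase and cyclin genes reported was listed: PHO85, PCL6, PCL7, PCL8 and PCL10, whose products phosphorylate glycogen synthase or regulate storage, SNF1 and SNF4 of the energy-sensing kinase, and TPK2, TPK3 and BCY1 of protein kinase A. SGA1, a glucoamylase gene known for glycogen use in sporulation, was at 1.74 in the authors' deposited table (SE 0.52, adjusted p = 0.0107, DESeq2), at a base mean of only 1.58.

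Related gene pairs in the pathway took several patterns in spt6-1004. GSY1 and GSY2 were both higher and GLG1 and GLG2 were both unlisted. GAC1 was listed and its relative PIG1 was not, while GIP2 was listed and its relative PIG2 was not. PGM2 was higher and PGM1 lower. For pairs with 1 unlisted gene the difference was not tested, since that gene has no value.

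Trehalose is the other storage sugar of yeast and is made from the same UDP-glucose. Of 7 trehalose genes, 4 rose and 0 fell in spt6-1004, beside 5.63% of all adjusted genes that rose and 6.62% that fell. This list was also chosen with earlier results known. The median log2 fold change among the listed trehalose genes was 2.03. TPS1, the trehalose 6-phosphate synthase gene, was at 2.18 (SE 0.25) and TSL1, a subunit of the same complex, at 1.87 (SE 0.26) in the authors' deposited table. The neutral trehalase genes NTH1 and NTH2, which encode breakdown enzymes, were at 2.48 (SE 0.24) and 1.09 (SE 0.39) in the authors' deposited table. NTH2 was near the threshold (adjusted p = 0.0409, DESeq2). TPS2, TPS3 and ATH1 were not listed. Genes for making and genes for degrading the store were therefore listed as higher for both sugars.

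**Figure D4:**
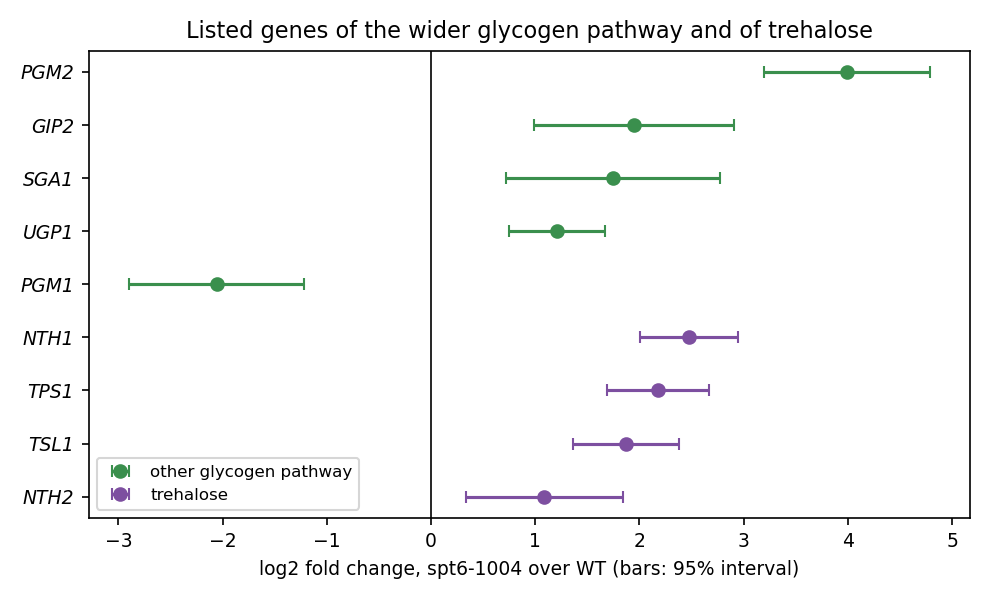
Log2 fold changes of spt6-1004 over WT with 95% intervals for the listed genes of the wider glycogen pathway (green) and of trehalose metabolism (purple). PGM2 stands highest at 3.99, and PGM1 at -2.06 is the only one of the 9 below 0.

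The glycogen genes lie on 8 chromosomes, with GSY1 and IGD1 near each other on VI and GPH1 and GDB1 both on XVI. Of the 19 protein-coding genes directly next to them, 2 rose, 2 fell and 15 were not listed. Over all adjusted genes, 5.63% rose and 6.62% fell, and the neighbours were not tested against these shares. AIP5, the protein-coding gene between GSY1 and IGD1 and on their strand, was at 1.22 in the authors' deposited table (SE 0.31, adjusted p = 0.00136, DESeq2), so 3 protein-coding genes in a row were higher there. GDB1 had a lower gene 485 bp before it, DPM1, at -1.76 in the authors' deposited table (SE 0.44, adjusted p = 0.001, DESeq2). It had a higher gene 563 bp after it, the autophagy gene ATG13, at 1.39 in the authors' deposited table (SE 0.41, adjusted p = 0.00971, DESeq2). TIF1, a translation initiation factor gene 366 bp after the unlisted GLG1, was at -1.49 in the authors' deposited table (SE 0.43, adjusted p = 0.00651, DESeq2). No listed gene was directly next to GPH1, GLC3, GSY2 or GAC1 among annotated protein-coding genes.

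For spt6-S8A, 0 of the 10 glycogen genes were listed, in a table of 23 genes that are 5.34% of the 431 adjusted. The lowest base mean in that table was 32.6, and 0 of the 7 glycogen genes with a known base mean reached it. If the 431 genes are those above a minimum base mean, that minimum lay at or below 32.6, and its value is not known. Whether any of these 7 genes was adjusted for spt6-S8A is therefore not known either. For a gene that was not adjusted, absence says nothing of its change. Among the wider lists, NTH1 alone was listed for spt6-S8A, at a base mean of 67.7. It had a log2 fold change of 0.89 (SE 0.25, adjusted p = 0.0212, DESeq2) in spt6-S8A, beside 2.48 in spt6-1004, in the authors' deposited tables, which share the WT libraries.

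For spt6-S8E, 0 of the 10 glycogen genes were listed, where 1 gene of 5668 was (0.0176%), the serine synthesis gene SER3. An unlisted gene had a p of at least 1.76e-05 there, so that its Wald statistic lay within 4.29 of 0. With the SE of each gene from the spt6-1004 comparison as a stand-in, this allows log2 fold changes in spt6-S8E of up to 1.53 for GSY2, 1.54 for GDB1 and 1.76 for GPH1. It allows up to 1.90 for GLC3, 2.09 for GAC1, 2.18 for IGD1 and 2.27 for GSY1. The spt6-1004 values of 5 of the 7 genes lie above these limits, while those of GSY1 and IGD1 lie below, so a change in spt6-S8E as large as theirs in spt6-1004 would have gone unlisted at these errors. The difference between the mutants was not tested, as no spt6-S8E value is known. Whether errors at the low base means of the glycogen genes were alike in both mutants was not tested, so these limits are rough.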

How the data were processed

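The authors' deposited tables compare sense RNA of each mutant with WT. The submitters' processing notes name build sacCer3 and the tools STAR 2.5.2b, DESeq2 1.14.1, Salmon 0.8.1, SAMtools 1.3.1, cutadapt 1.10 and bedtools 2.26, with no role or order. Per the file headers, the deposited columns are the base mean, the log2 fold change and its standard error, the Wald statistic (a score) and the raw and adjusted p-value. Only genes with an adjusted p under 0.05 are in the deposited tables. Depth per library is unknown, and the sources used here do not say whether the ERCC spike-ins entered the scaling. Base means times 12 were whole in all rows, which division by unequal factors per library would hardly leave. The authors' comparison may therefore have made no correction for depth itself. Whether the values were scaled before it is not known. The part of depth differences in the listed changes, higher or lower, was not tested.

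The number of adjusted genes was worked back from raw and adjusted p (Benjamini-Hochberg), a step tested on simulated data. It returned the deposited adjusted p in 694 of 694, 23 of 23 and 1 of 1 rows (tolerance 1e-06); the last match holds by construction. Base means times 12 were whole in all rows, and equal between tables in 23 of 23 shared genes. Pairs of fold changes were compared by a two-sided z test, adjusted over 21 pairs. Names, positions and coding lengths came from RefSeq assembly R64. Python 3.11.15, scipy 1.17.1 and pandas 2.3.3 were used.

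The members and lists were chosen with earlier results of these data known. Named were all 10 members, the listed genes of both wider lists and next to a member, and the 5 listed genes nearest the members' median. No new count model was fitted. Promoter and protein sequences and the 19 chromatin immunoprecipitation and input samples were not analysed here. A further gene of the wider glycogen list is not reported here.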

Additional observations from a re-analysis of the deposited data

How the results depend on the processing

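At an adjusted p under 0.01, 5 of the 7 glycogen genes stayed listed as higher, and the pair lost was GSY1 and IGD1. A log2 fold change of at least 1 in size kept 7. A base mean of at least 10 left 4 (GLC3, GSY2, GPH1 and GDB1), and a base mean of at least 100 left 0, as no listed glycogen gene reached it. Over all genes, the 319 higher ones became 205 with the stricter p, 295 with the minimum fold change, 177 at a base mean of at least 10 and 18 at a base mean of at least 100. The count of lower glycogen genes was 0 in each of these settings. Higher genes of the wider glycogen list numbered 3 with the stricter p and 4 with the minimum fold change, and those of the trehalose list numbered 3 and 4. Adjusting the 23 genes listed for spt6-S8A over more genes could only drop some of them, so the 0 glycogen genes there were fixed in advance. Genes outside the 431 adjusted have no known p and could not be brought in. This setting therefore does not show what a wider adjustment would list. Differing pairs of glycogen genes numbered 10 with errors correlated by 0.5 and 0 with errors 1.5 times as large, against 6 as reported. The planned promoter counts were not run, as sequences were not used here. No paired analysis was possible because the tables hold no values per library, and for the same reason no replicate could be left out.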

Other observations

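The 5 other listed genes nearest the median of the glycogen genes in spt6-1004, by that single log2 fold change, came from other pathways. HSP42, a small heat shock protein gene, was at 2.60 (SE 0.24) in the authors' deposited table, with a base mean of 91.7. OM45, a gene for a protein of the mitochondrial outer membrane, was at 2.67 (SE 0.49) in the authors' deposited table and had the same base mean as GAC1, 6.83. CYB2, the lactate dehydrogenase gene, was at 2.61, DAK2, a dihydroxyacetone kinase gene, at 2.60 and BIO4, a biotin synthesis gene, at 2.65 in the authors' deposited table, each with a base mean of 3.25 or less.

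YPR160W-A, chosen after its values were seen because its systematic name places it beside GPH1, was listed for spt6-1004 at 1.34 in the authors' deposited table (SE 0.46, adjusted p = 0.0312, DESeq2). Its base mean was 0.83, a total of 10 over all 12 libraries. It had no entry in the gene table used here, so its position relative to GPH1 was not analysed here.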
